A study of Mus musculus with 18 samples.

Results

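The response of resting bone marrow-derived macrophages to LPS alone was measured in 4 of the 18 ATAC-seq libraries of the series, at all 53796 accessible regions. The members were chosen by their labels and not by a measured value. The LPS group, written ML, received medium for 4 h and then LPS at 1 ng/mL for 4 h, in 2 libraries. The control group, written MM, received medium for 4 h and then fresh medium for 4 h, also in 2 libraries. Macrophages of every group were grown with M-CSF (20 ng/mL) from bone marrow of wild-type C57BL/6 mice aged 6 to 12 weeks, and no group carried a transgene or deletion. Side comparisons use 3 further groups that received medium first and another stimulus second, each with 2 libraries: CpG at 100 nM (MC), polyI:C at 1 µg/mL (MP) and TNF at 10 ng/mL (MT). The labels do not say whether the 2 libraries of a group came from separate mice or cultures, so p-values measure the spread between libraries, which may be technical.

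ATAC-seq uses a transposase that inserts adapters into open DNA, so the number of reads over a region rises with its accessibility. LPS, a component of the outer membrane of gram-negative bacteria, is bound by CD14 and by the receptor TLR4 with MD-2 at the macrophage surface. TLR4 signals through the adaptors MyD88 and TRIF to NF-kB and to the MAP kinases that act on AP-1, and through TRIF to IRF3 and type I interferon. The same signals induce inhibitors of NF-kB, such as IkBα and A20, which limit the response. Many enhancers of inflammatory genes are closed in resting macrophages and open after stimulation.

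Start sites were searched for the letters that NF-kB, interferon-activated factors and AP-1 are known to bind. RefSeq windows of 250 bases before to 50 bases after a start (GRCm38.p6, the build of the deposited coordinates) were set beside the regions. Of 471 genes in the lists described here, 365 had a window and 250 had a region over a start. A region over a start was higher with LPS than with medium at 61 of these genes and lower at 15. Letters of the NF-kB site GGGANTTTCC (N is any base) were searched on both strands, and 6 of the 61 genes held them in the window. The stretches below lie before the start of a gene whose start region rose and hold those letters or the letters GAAANNGAAA of the interferon-stimulated response element (ISRE). They are a part of the stretches that met this rule. Those not printed hold ISRE letters, and their start regions rose by 0.36 (Socs1) to 1.06 (Gbp2). Capitals mark the matched letters on either strand, and each stretch runs 5′ to 3′ on the strand of its gene. The Cxcl2 stretch is chr5:90903772-90903891 on the plus strand, Nfkbia is chr12:55492648-55492767 on the minus strand, Il6 is chr5:30012994-30013113 on the plus strand and Csf1 is chr3:107760534-107760653 on the minus strand. Gbp5 is chr3:142496684-142496933 on the plus strand, Cxcl10 is chr5:92349013-92349132 on the minus strand and Ifit3 is chr19:34583343-34583462 on the plus strand.
Cxcl2: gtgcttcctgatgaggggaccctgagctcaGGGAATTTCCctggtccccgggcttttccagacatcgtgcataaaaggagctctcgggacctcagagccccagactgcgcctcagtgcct
Nfkbia: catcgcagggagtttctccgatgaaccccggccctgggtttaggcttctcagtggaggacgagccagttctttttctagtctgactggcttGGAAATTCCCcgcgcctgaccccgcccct
Il6: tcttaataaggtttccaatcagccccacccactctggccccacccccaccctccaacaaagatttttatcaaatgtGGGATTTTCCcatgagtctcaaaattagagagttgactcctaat
Csf1: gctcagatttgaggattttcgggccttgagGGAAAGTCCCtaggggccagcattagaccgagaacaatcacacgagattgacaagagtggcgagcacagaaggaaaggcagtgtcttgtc
Gbp5: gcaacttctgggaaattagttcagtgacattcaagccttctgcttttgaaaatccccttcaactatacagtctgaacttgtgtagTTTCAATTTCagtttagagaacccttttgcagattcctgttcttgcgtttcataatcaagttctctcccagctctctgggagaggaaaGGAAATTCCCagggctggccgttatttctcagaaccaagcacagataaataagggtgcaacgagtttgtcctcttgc
Cxcl10: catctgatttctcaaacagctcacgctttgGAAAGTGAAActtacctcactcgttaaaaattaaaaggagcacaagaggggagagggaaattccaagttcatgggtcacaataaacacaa
Ifit3: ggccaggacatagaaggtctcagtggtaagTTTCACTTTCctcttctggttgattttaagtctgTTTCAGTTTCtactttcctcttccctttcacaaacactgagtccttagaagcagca
In Gbp5 the first marked run is an ISRE match and the second an NF-kB match. The single runs of Cxcl2, Nfkbia, Il6 and Csf1 are NF-kB matches, and the run of Cxcl10 and both runs of Ifit3 are ISRE matches.

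Regions over these starts were 0.77 to 1.51 higher with LPS in log2 CPM (read counts scaled to the size of the library, on the log2 scale). The shares of windows with each motif are given as a description, over 9221 windows that had a region over the start. The NF-kB letters stood in 15 of 516 windows whose region rose (2.91%), in 24 of 7611 whose region was not called (0.315%) and in 1 of 1094 whose region fell (0.0914%), against 0.411% of all 32851 RefSeq windows. A looser NF-kB consensus, which includes those letters, stood in 93 of the 516 windows that rose, in 9.23% of those that fell and 8.46% of all windows. The ISRE letters stood in 6.78%, 2.93% and 3.44% of the same 3 sets. For the AP-1 site TGANTCA the shares were 11.2%, 5.39% and 7.81%. The set of all windows includes those without a region over the start. Windows whose region was not called held the looser consensus in 10.1%, the ISRE letters in 3.14% and the AP-1 site in 5.1%. For these motifs the windows that fell thus lay near those not called. A match shows the letters and not a bound factor.

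The libraries were checked before the comparison. Reads in regions numbered 5277854 and 5623166 for LPS and 5695271 and 3141641 for medium, and medium replicate 2 was the shallowest of the 18 libraries, with 47 regions at 0 reads. The log2 values of the 2 libraries of a group correlated at 0.973 for LPS and 0.967 for medium across regions, which are not independent. Each of the 8 macrophage marker genes checked (Csf1r, Adgre1, Cd68, Itgam, Lyz2, Spi1, Mertk and Fcgr1) had an accessible region, the most open of which lay between 4.26 and 6.29 log2 CPM in medium. Of 17 T and NK cell markers 8 had no region, Cd3e among them, but only 15 of the 17 were in the gene reference. A marker outside the reference could not receive a region. Of 11 B cell markers, all in the reference, 9 had none. In the other lists 2 of 10 dendritic cell, 4 of 14 neutrophil, 5 of 13 stromal and endothelial and 7 of 13 erythroid and progenitor markers had none. Open chromatin at a lineage gene is not its expression, and some regions at other lineage genes were as open as those of the macrophage markers. In medium Klrb1c, in the T and NK cell list, reached 6.16 log2 CPM. Cd34 reached 6.30, Il7r 5.97, Siglech 5.92 and Cdh5 5.71.

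LPS at 1 ng/mL changed accessibility widely, with more regions opening than closing and with the larger changes among those that opened. Of 53796 regions, 13879 (25.8%) passed an adjusted p of 0.05 in limma's test on log2 CPM. Among them 8355 (15.5% of all regions) were higher with LPS and 5524 (10.3%) were lower. By size, 3396 regions rose and 542 fell by 2-fold or more, 532 rose and 3 fell by 4-fold or more, and 53 rose and 0 fell by 8-fold or more. The median region that rose had 38 and 20 reads in the medium libraries and 73 and 76 reads with LPS, and gained 0.89 log2 units. The median region that fell went from 108 and 62 reads to 60 and 65, a log2 difference of -0.67. Over all regions the median difference was -0.002. Counts depended on the number of libraries: 7740 regions were called without LPS replicate 1, 8935 without LPS replicate 2 and 8046 without medium replicate 2, with 5441, 5880 and 5647 of them higher.

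**Figure D1:**
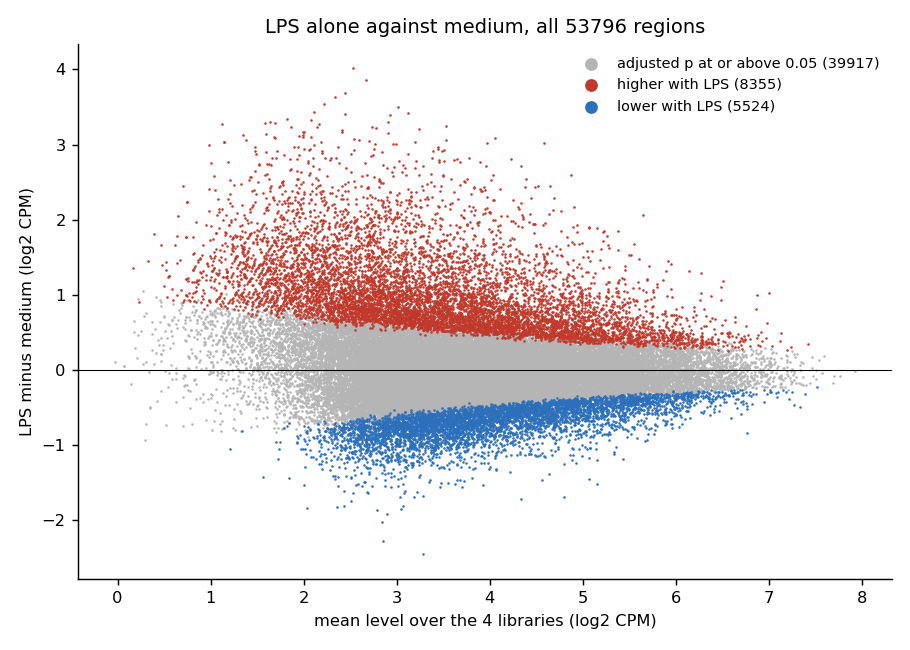
Each point is 1 of 53796 regions, with its mean level over the 4 libraries (log2 CPM) on the x axis and the difference between LPS and medium (log2 CPM) on the y axis. The 8355 red points, higher with LPS, reach further from 0 than the 5524 blue points, and the largest rises lie at low mean levels.

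Rises and falls were spread differently over the genome. Within 1 kb of a gene end 7.16% of 12276 regions rose and 11.2% fell, whereas inside genes 17.8% of 23920 regions rose and 9.45% fell. Between genes 19.0% rose and 9.33% fell. Counted from the nearest RefSeq start, 5.77% of 8182 regions with a midpoint within 250 bases rose and 12.0% fell, and of 13019 regions between 5000 and 20000 bases away 18.7% rose and 8.80% fell. Ranked by their level in medium, the 10778 lowest regions (up to 2.77 log2 CPM) held 4095 rises and 97 falls, and the 10759 highest (from 4.77) held 865 rises and 1871 falls. The medium libraries enter both the ranking and the difference, so this split is partly built in, and at these depths a region with few reads in medium could hardly pass the test as a fall.

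The 12 largest rises lay in regions with 1 to 18 reads in each medium library. The region that rose most was at Fpr1, the receptor for bacterial formyl peptides (chr17:17884704-17885205, mm10, -1.0 kb from the start). It had 4 and 3 reads with medium and 124 and 121 with LPS, or 0.40, 0.64, 4.59 and 4.47 log2 CPM, a difference of 4.01 ± 0.21 (SE, adjusted p = 2.86e-17). A region inside Nfkb1, which encodes the NF-kB precursor p105, came next (chr3:135640212-135640713). Its reads were 5 and 4 with medium against 134 and 124 with LPS, a difference of 3.86 ± 0.18 (adjusted p = 2.5e-18). Tnip1, whose product works with A20 to restrain NF-kB, had a region inside the gene body (chr11:54953981-54954482; the annotation used here does not separate exons from introns) with 5 and 4 reads against 96 and 90, or 3.41 ± 0.22 higher (adjusted p = 3.85e-15). The region at the anti-apoptotic gene Bcl2a1a had 11 and 5 reads against 113 and 151, and was 3.39 ± 0.18 higher (adjusted p = 3.58e-17). Both LPS libraries lay above both medium libraries at each of these regions, which the rule of choice required.

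The other genes among the 12 largest rises were Ccdc88b (3.68), the DNA repair factor Rbbp8 (3.63), the microtubule-associated Eml2 (3.54), the circadian regulator Arntl (3.51), Alpk2 (3.44), Susd1 (3.42), the collagen cross-linking enzyme Lox (3.35) and Acod1 (3.33), all in log2 CPM with SE of 0.21 to 0.26. At the Arntl region the levels were 0.88 and 1.64 with medium and 4.91 and 4.63 with LPS. Susd1 showed the widest medium pair of the 12, with 1.91 and 0.90 against 4.87 and 4.79.

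The largest falls were smaller and included genes of resting and alternatively activated macrophages. The steepest of the falls assigned to a gene lay inside Hsf3, -20.8 kb from the start of Vsig4, a complement receptor of resident macrophages (chrX:96314022-96314523). Its levels were 3.90 and 4.08 with medium and 1.44 and 2.00 with LPS, a difference of -2.27 ± 0.30 (adjusted p = 1.78e-07). The region at -11.2 kb from the start of Retnla, a marker of alternative activation (chr16:48831176-48831677), had 84 and 42 reads with medium and 16 and 16 with LPS. It fell by 2.03 ± 0.32 (adjusted p = 5.65e-06). A region inside Nrp1, a co-receptor for semaphorins and VEGF, went from 4.15 and 3.91 to 2.14 and 2.53 and fell by 1.69 ± 0.26. The region at Selenop, a selenium transport protein, went from 3.58 and 3.08 to 1.79 and 1.26 and fell by 1.80 ± 0.34. Hs3st1, a heparan sulfate sulfotransferase, had the most accessible region of the 12, at 5.66 and 5.62 with medium and 3.95 and 3.96 with LPS, a fall by 1.68 ± 0.18. The remaining genes were Morc1, Rxfp1, Bccip, Tyw3, Cask, Tdrd3 and Cfap58, with differences of -1.92 to -1.68. In all 12 the groups did not overlap, which the rule of choice required.

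**Figure D2:**
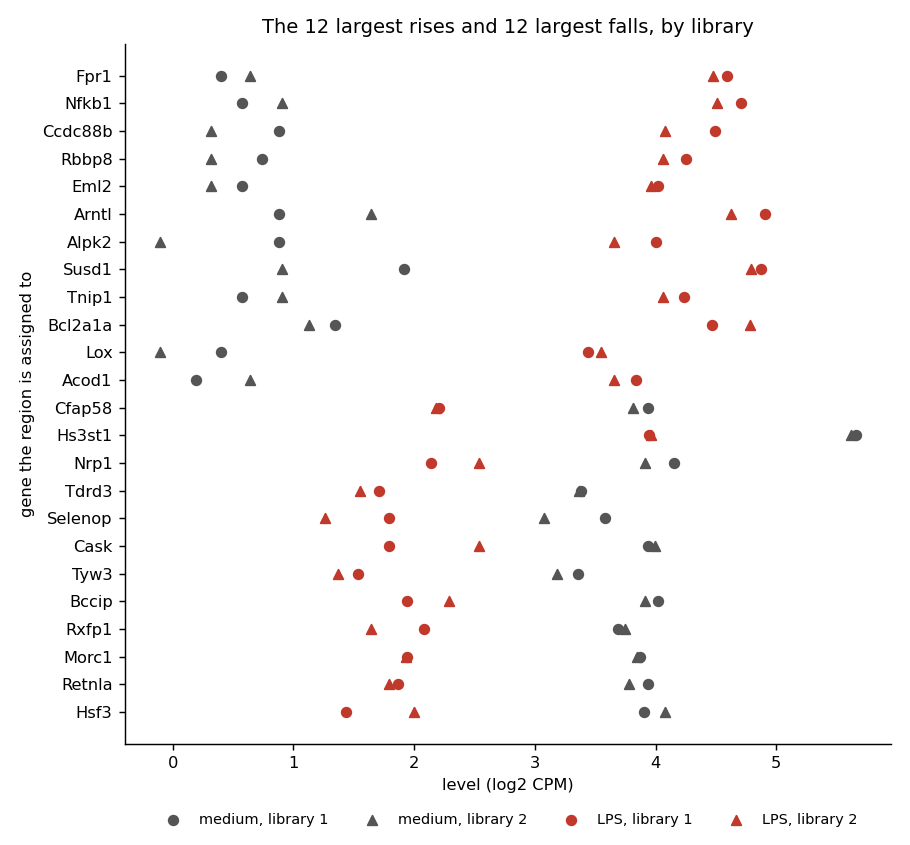
Level in log2 CPM (x axis) for the 12 called regions with the largest gain and the 12 with the largest loss, among those assigned to a gene, 1 row per region, with medium libraries in grey and LPS libraries in red (circle and triangle are libraries 1 and 2). The rises start near 0 to 2 log2 CPM in medium, and the falls start between 3.08 and 5.66. Only regions whose 2 groups do not overlap could be chosen.

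Receptors of microbial products changed in both directions. The list of LPS and microbe sensors held 168 regions of 24 genes, with a median difference of 0.10. Of these regions 38 rose (22.6%) and 20 fell (11.9%), against 15.5% and 10.3% of all regions, so the share of falls was near that of all regions. At least 1 region rose at 15 of the genes and at least 1 fell at 9, against 4206 and 3082 of all 13804 genes with a region. Ly96, which encodes the TLR4 partner MD-2, had 1 fall and no rise, and Cd180, a TLR-like receptor, had 4 falls and 1 rise. Nod2, a sensor of peptidoglycan fragments, had a region that went from 2.51 and 1.64 to 4.82 and 4.86 (2.77 ± 0.20, adjusted p = 8.76e-14). Clec4e, the Mincle receptor for mycobacterial glycolipid, had a region at -0.8 kb that was 2.36 ± 0.23 higher. Regions at Tlr1 (2.31 ± 0.22) and over the start of the inflammasome gene Nlrp3 (1.37 ± 0.14) also rose. At Cd14, the LPS co-receptor, 2 of 4 regions rose, by 1.46 ± 0.20 and 0.59 ± 0.19, and the region next to the gene was 0.21 ± 0.16 higher without passing the test.

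Tlr4 had 11 regions, of which 5 fell and none rose. The region over its start (chr4:66827307-66827808) had 5.82 and 5.89 log2 CPM with medium and 5.37 and 5.29 with LPS, a difference of -0.53 ± 0.13 (adjusted p = 0.00325). The largest fall of the locus was downstream of the gene (chr4:66894474-66894975), from 4.22 and 4.30 to 3.07 and 3.31 (-1.07 ± 0.19, adjusted p = 5.09e-05). These 2 calls were kept when any 1 library was left out, and the other 3, with differences of -0.57, -0.68 and -0.51, were lost in at least 1 such fit.

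Genes of the signalling proteins downstream of the receptor had many rises and few falls. Of 108 regions of TLR adaptors and kinases 34 rose (31.5%, against 15.5% of all regions) and 6 fell (5.56%, against 10.3%). The median was 0.17. The kinase genes Tbk1 and Ikbke, which act on IRF3, had regions 1.51 ± 0.15 and 1.06 ± 0.16 higher. Ripk2, the kinase that serves NOD receptors, had a distal region that went from 1.44 and 1.49 to 3.87 and 3.90 (2.42 ± 0.19, adjusted p = 4.81e-13). Irak2, an IRAK family kinase of the MyD88 complex, had a region 1.37 ± 0.14 higher, and 11 of its 17 regions rose. Of 165 regions of MAP kinases and their phosphatases 44 rose (26.7%) and 5 fell (3.03%). Mapkapk2, the kinase that stabilises cytokine mRNA under p38, had a region 1.89 ± 0.17 higher, Map2k6 one 1.83 ± 0.22 higher, and the phosphatase Dusp4 one 1.78 ± 0.24 higher.

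Regions of NF-kB subunit genes and of NF-kB inhibitors rose in large part. All 6 NF-kB subunit genes had at least 1 region that rose, 21 of 47 regions (44.7%) against 1 that fell, with a median of 0.42. Beside Nfkb1, the rises included Bcl3, a nuclear IkB protein counted here with the subunits (1.98 ± 0.23), Rel (1.36 ± 0.18) and Nfkb2 (1.01 ± 0.17). Of 188 regions of inhibitors and feedback genes 97 rose (51.6%) and 5 fell (2.66%), with a median of 0.52. At least 1 rise was found at 24 of the 26 genes. Over all regions 15.5% rose and 10.3% fell, and 4206 of 13804 genes with a region had a rise. Irak3, which blocks the IRAK complex, had a region at 0.19 and 0.31 with medium and 3.42 and 3.55 with LPS (3.23 ± 0.25, adjusted p = 6.84e-13). Socs3, an inhibitor of cytokine receptors, had one at -8.7 kb that went from 1.77 and 2.02 to 5.27 and 5.03 (3.25 ± 0.19, adjusted p = 2.98e-16). N4bp1, a ubiquitin-binding suppressor of NF-kB, rose by 2.50 ± 0.15.

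Nfkbia, which encodes IkBα, and Tnfaip3, which encodes A20, opened at several places each. The region over the Nfkbia start (chr12:55492523-55493024), whose NF-kB letters are printed above, went from 5.54 and 5.43 to 6.78 and 6.83 (1.32 ± 0.13, adjusted p = 2.88e-10). Of its 15 regions 8 rose and none fell. Of the 8, 3 formed a cluster 4.6 to 6.1 kb past the start that was nearly closed in medium, with levels of 0.40 to 2.23, and reached 2.93 to 4.50 with LPS. At Tnfaip3, 7 of 14 regions rose and none fell. One lay 2.4 kb into the gene and went from 4.14 and 3.75 to 5.68 and 5.76 (1.78 ± 0.15), and another, at a start within the gene, from 1.01 and 1.78 to 3.49 and 3.31 (2.00 ± 0.25).

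AP-1 and immediate early genes changed less as a list, with a median of 0.12. Of 185 regions 41 rose (22.2%, against 15.5% of all regions) and 11 fell (5.95%, against 10.3%). Fos had a region at 1.84 and 1.12 with medium and 4.49 and 4.51 with LPS (3.01 ± 0.26, adjusted p = 7.51e-12). Klf6 (1.5 ± 0.17), Junb (1.28 ± 0.16) and Ier5 (1.26 ± 0.16) had rises too.

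**Figure D3:**
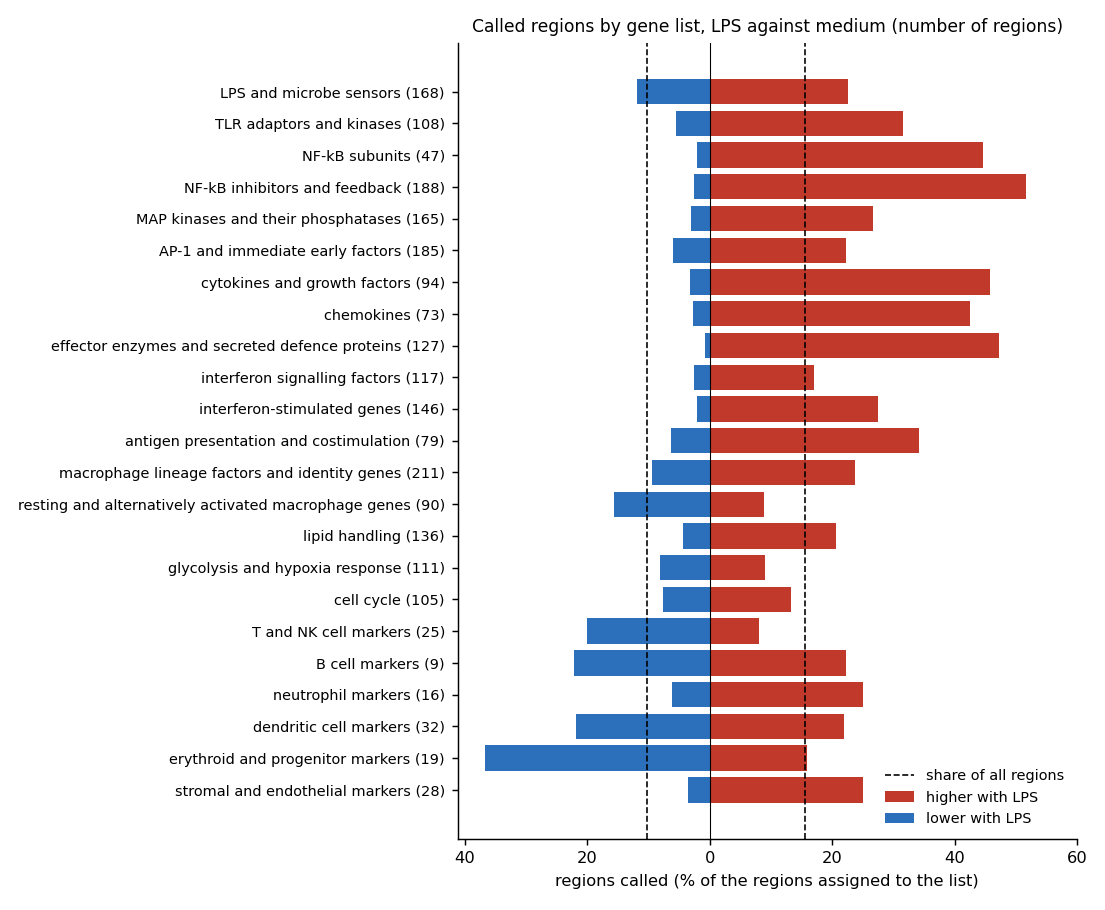
Share of the regions assigned to each gene list (x axis, percent) that were higher (red, right) or lower (blue, left) with LPS, with the number of regions in brackets. Dashed lines mark the shares over all regions, 15.5% and 10.3%; NF-kB inhibitors and feedback reach 51.6% higher, and resting and alternatively activated macrophage genes have 15.6% lower and 8.89% higher.

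Cytokine, chemokine and effector genes gained accessibility. A rise was found at 18 of 22 cytokine genes, 13 of 19 chemokine genes and 22 of 25 effector genes that had a region. Over all genes with a region the count was 4206 of 13804, and it grows with the number of regions of a gene. Of 94 cytokine regions 43 rose (45.7%) and 3 fell (median 0.41), of 73 chemokine regions 31 rose (42.5%) and 2 fell (median 0.33), and of 127 regions of effector enzymes and secreted defence proteins 60 rose (47.2%) and 1 fell (median 0.52). The shares over all regions were 15.5% higher and 10.3% lower. All 4 regions of Tnf rose. The one over its start (chr17:35201892-35202393) went from 3.71 and 3.53 to 5.60 and 5.54, a difference of 1.95 ± 0.15 (adjusted p = 1.01e-12). Both regions of Il6 rose, by 0.77 ± 0.15 over the start and by 1.43 ± 0.26 at -40.1 kb.

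At the interleukin-1 genes the rises lay away from the Il1b start. Of the 7 regions assigned to Il1b 4 rose, and the largest rise was at -39.4 kb (chr2:129410301-129410802), from 0.88 and 0.64 to 3.25 and 3.45 (2.59 ± 0.25, adjusted p = 2.43e-10). The region nearest the Il1b start, at -2.4 kb, had 4.96 and 4.63 with medium and 5.14 and 5.09 with LPS, which did not pass the test (0.32 ± 0.16, adjusted p = 0.147). Il1a had a region at -1.8 kb at 0.58 and 0.90 with medium and 3.70 and 3.61 with LPS (2.91 ± 0.23).

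Il12b, the p40 subunit of interleukins 12 and 23, showed opposite changes along 1 locus. The region at -9.8 kb (chr11:44389981-44390482), between genes, went from 4.46 and 4.25 to 6.11 and 6.03 (1.71 ± 0.12, adjusted p = 3.16e-14). The region at -1.0 kb was 0.16 ± 0.19 higher and did not pass the test. The region over the last part of the gene (chr11:44414555-44415056) fell from 5.17 and 5.18 to 4.35 and 4.36 (-0.82 ± 0.16, adjusted p = 0.000117). A neighbour 17.5 kb past the start had a difference of -0.79 ± 0.21, and its call was lost without LPS replicate 1 or medium replicate 2.

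Chemokine rises were led by Ccl9, at 2.04 and 2.02 with medium and 4.95 and 4.92 with LPS (2.91 ± 0.20), and Ccl5 (1.88 ± 0.19). The start of Cxcl2, a neutrophil attractant, was open in medium at 5.10 and 5.27 and reached 6.57 and 6.70 (1.45 ± 0.11, adjusted p = 2.33e-13).

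Acod1, which makes the antimicrobial metabolite itaconate, changed along the whole locus: 17 of its 22 regions rose and none fell. The region over the start (chr14:103046654-103047155) went from 2.46 and 2.57 to 5.25 and 5.30 (2.76 ± 0.13, adjusted p = 4.46e-18). Regions along the gene body were closed in medium. One at 103053542 had -0.34 and -0.69 log2 CPM, the second of which is 0 reads, and 2.57 and 2.39 with LPS (3.00 ± 0.28). Just past the gene 1 region reached 3.84 and 3.65 from 0.19 and 0.64 (3.33 ± 0.25). Nos2, the inducible nitric oxide synthase, had rises at 4 of 5 regions, the largest far from the gene (chr11:78886967-78887468), from 2.79 and 1.32 to 4.94 and 4.75 (2.79 ± 0.27). Among the other effectors, a region at -0.2 kb from a transcript start near Cp, which encodes ceruloplasmin, rose by 3.23 ± 0.18, and one inside Ptges, the inducible prostaglandin E synthase, by 3.02 ± 0.19.

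**Figure D4:**
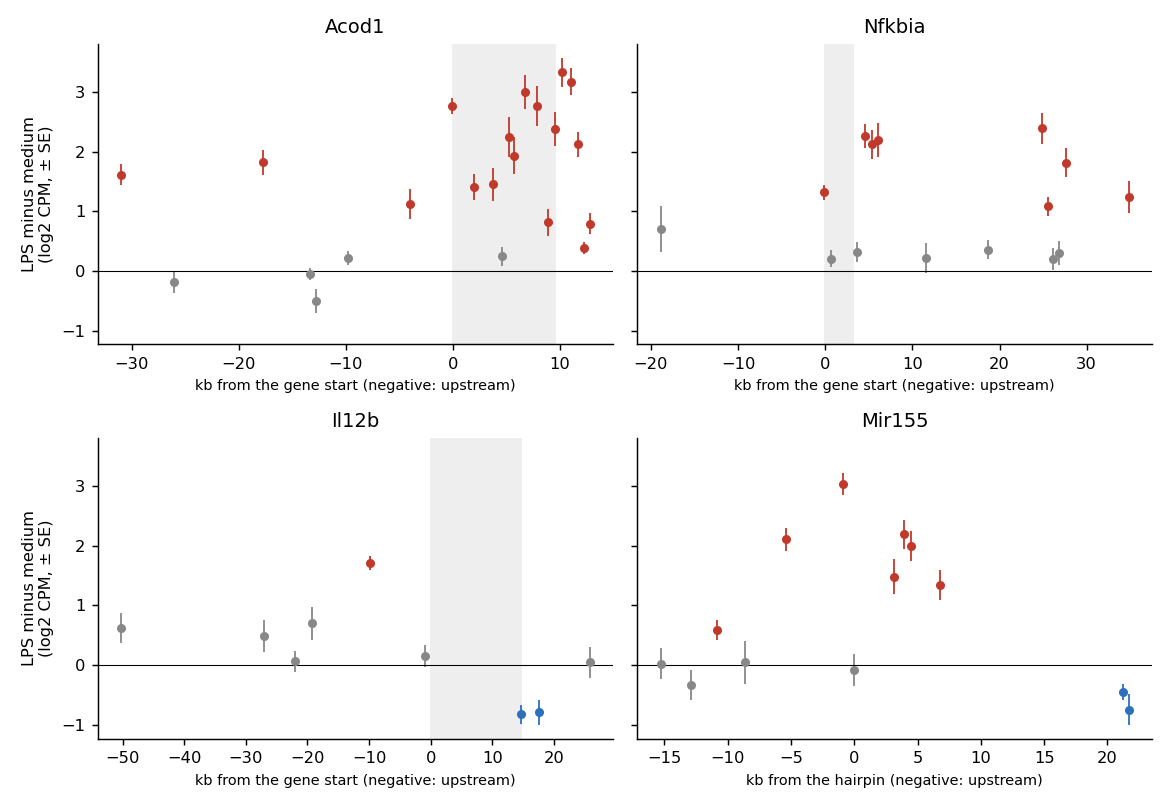
Difference between LPS and medium (y axis, log2 CPM, bars are SE) of every region assigned to Acod1, Nfkbia and Il12b, or within 30 kb of the Mir155 hairpin, by distance in kb from the RefSeq start or the hairpin (x axis); grey bands are gene bodies. Red points were called higher, blue points lower and grey points were not called. Acod1 has 17 red points along its body and beyond, and Il12b has 1 red point at -9.8 kb and 2 blue points past the gene.

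Some regions of interferon genes rose. Of 146 regions of interferon-stimulated genes 40 rose (27.4%, against 15.5% of all regions) and 3 fell (2.05%, against 10.3%). The median was 0.27. The region over the start of Ifit3 (chr19:34583288-34583789) went from 2.93 and 2.97 to 4.13 and 4.47 (1.35 ± 0.17, adjusted p = 1.17e-07). Other rises of the list were inside Parp14 (1.68 ± 0.14), near Samd9l (1.65 ± 0.19) and over the start of Gbp2 (1.06 ± 0.14). At Samd9l the region over the start fell (-1.02 ± 0.23). Cxcl10, a chemokine under interferon and NF-kB control, rose at its start from 3.67 and 3.37 to 4.99 and 5.06 (1.51 ± 0.14, adjusted p = 1.19e-10). Its other 2 regions also rose but stayed low, at 1.22 to 1.94 with LPS against 0.31 to 0.74 with medium. The region 0.5 kb past the start was 1.29 ± 0.28 higher (adjusted p = 0.000523). The call of the other (0.81 ± 0.31, adjusted p = 0.0444) was lost in several alternative fits. Of 117 regions of interferon signalling factors 20 rose (17.1%), near the share over all regions, and 3 fell. The rises included 6 of the 9 regions of Irf1, a factor that binds the ISRE, and a region near Ifnar2, a chain of the type I interferon receptor, at 1.13 and 1.12 with medium and 2.86 and 3.14 with LPS (1.87 ± 0.25).

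Antigen presentation and costimulation genes had 27 rises (34.2%) and 5 falls (6.33%) among 79 regions, against 15.5% and 10.3% of all regions. Examples were Icam1, an adhesion molecule (2.06 ± 0.24), Ciita, the regulator of MHC class II (1.89 ± 0.19), Cd274, which encodes PD-L1 (1.79 ± 0.18), and Cd40 (1.40 ± 0.16).

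Genes of macrophage identity changed in both directions. Of 211 regions 50 rose (23.7%) and 20 fell (9.48%), with a median of 0.13. Over all regions 15.5% rose and 10.3% fell, so the share of falls was near that of all regions. Rises were found in Adgre1, which encodes F4/80 (2.37 ± 0.25), in Zeb2 (1.97 ± 0.14) and Mitf (1.87 ± 0.20), both transcription factors, and near the factor Cebpb (1.73 ± 0.18). At Csf1r, the M-CSF receptor, the region at the start rose from 4.61 and 4.72 to 5.69 and 5.69 (1.03 ± 0.15), and the strongest region of the gene, inside it, was at 6.21 and 6.36 with medium and 6.32 and 6.09 with LPS (-0.08 ± 0.14, adjusted p = 0.69). A further intragenic region of Csf1r fell by 1.26 ± 0.32 and lost its call without LPS replicate 1 or medium replicate 1.

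Resting and alternatively activated macrophage genes formed the macrophage list with more falls than rises, with a median of -0.06. Of 90 regions 14 fell (15.6%) and 8 rose (8.89%), against 10.3% and 15.5% of all regions. Retnla and Nrp1, described above, had the steepest falls of the list. Not all members fell. Mrc1, the mannose receptor, had a region that rose from 0.58 and 0.90 to 2.66 and 2.62 (1.9 ± 0.25), and the fractalkine receptor Cx3cr1 had one that rose from 4.91 and 4.86 to 6.12 and 5.93 (1.14 ± 0.12).

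Metabolic and cell cycle genes held both rises and falls, to be read against 15.5% and 10.3% of all regions. Lipid handling had 28 rises and 6 falls among 136 regions, with a rise at Lpl, lipoprotein lipase (1.52 ± 0.22). The start of Abca1, a cholesterol exporter, rose by 0.88 ± 0.13, and the region over a start of the scavenger receptor Cd36 fell (-0.85 ± 0.21). Glycolysis and hypoxia genes had 10 rises and 9 falls among 111 regions, or 9.01% and 8.11% (7 and 8 after quantile normalization). Pfkfb3, which makes the activator of phosphofructokinase, rose by 3.01 ± 0.23 and Hk2, a hexokinase, by 1.67 ± 0.22, while a region of Pfkp, a phosphofructokinase, fell (-0.86 ± 0.17). Cell cycle genes had 14 rises and 8 falls among 105 regions, or 13.3% and 7.62%, with Cdk6 highest (2.65 ± 0.26). The regions over the starts of Cdk1 (-0.41) and Ccnb1 (-0.36) fell. A region over the Aurka start fell too (-0.36) but was not assigned to Aurka, whose 1 assigned region was not called (-0.46).

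Lists of other cell types were small, and their counts stand beside shares of 15.5% higher and 10.3% lower over all regions. T and NK cell markers had 2 rises and 5 falls among 25 regions, B cell markers 2 and 2 among 9, neutrophil markers 4 and 1 among 16, dendritic cell markers 7 and 7 among 32, erythroid and progenitor markers 3 and 7 among 19, and stromal and endothelial markers 7 and 1 among 28. The largest rises in these lists were at Ccr7 (2.59 ± 0.19), a chemokine receptor for homing to lymph nodes, and over the start of Camp, a cathelicidin of the neutrophil list (2.08 ± 0.15). The part of other cells in the results was not tested.

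Some genes gathered many called regions. Of 13804 genes with a region 4206 had at least 1 rise, 3082 at least 1 fall and 926 both. Lpp, a focal adhesion protein, had 24 rises among 49 regions, Abr 15 among 25, Tm9sf4 12 among 14, Hivep3, a kB-binding zinc finger protein, 12 among 27, the Src family kinase Lyn 11 among 21, and the endocytic protein Ehd1 10 among 10. None of these genes but Lyn, with 1, had a fall. The counts grow with the length of a gene and with its number of regions, and assignment to the nearest gene does not show which gene a region serves.

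Regions near the genes of miR-155, miR-146a and miR-21a included several rises, and regions near that of miR-17 included falls. These 4 loci were picked after their values were seen. MicroRNAs pair with target mRNAs through their seed, bases 2 to 8, which is in capitals in the mature sequences from RefSeq (GRCm38.p6), 5′ to 3′. miR-155 is induced by TLR ligands and acts on Socs1 and Inpp5d, miR-146a acts on Irak1 and Traf6, miR-21a on Pdcd4, and miR-17 belongs to a cluster that promotes proliferation. miR-146b is shown because it shares the seed of miR-146a.
mmu-miR-155-5p: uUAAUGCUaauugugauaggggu
mmu-miR-146a-5p: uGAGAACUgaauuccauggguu
mmu-miR-146b-5p: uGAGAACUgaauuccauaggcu
mmu-miR-21a-5p: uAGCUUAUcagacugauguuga
mmu-miR-17-5p: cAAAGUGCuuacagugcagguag
Within 30 kb of the Mir155 hairpin (chr16:84714140-84714204, plus strand) 7 of 13 regions rose and 2 fell. The one at -0.9 kb (chr16:84713025-84713526) went from 2.04 and 1.32 to 4.62 and 4.81 (3.03 ± 0.18, adjusted p = 3.65e-16), and the region over the hairpin itself had -0.08 ± 0.27.

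Around the hairpin that encodes miR-146a (chr11:43374397-43374461, minus strand) 5 of 11 regions rose and none fell. The clearest was 5.8 kb past the hairpin and went from 3.31 and 3.64 to 5.03 and 5.15 (1.62 ± 0.16, adjusted p = 1.8e-10). Around Mir21a, in and near Vmp1, 5 of 11 regions rose and none fell, the largest by 1.37 ± 0.25. Around Mir17 none of 4 regions rose and 3 fell, the largest by 0.76 ± 0.17 at -2.8 kb. Among 375 hairpins with 4 or more regions in that window, the median number of rises was 1, 26 had 4 or more rises, and 8 had 3 or more falls.

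The LPS libraries were then compared directly with the libraries of each other stimulus, without the medium group. Ligands and doses differed, so these comparisons describe the treatments as given. Against CpG, the TLR9 ligand, 1265 regions were higher with LPS (2.35%) and 2287 were lower (4.25%). Of the 146 regions of interferon-stimulated genes none was higher with LPS and 44 were lower, with a median of -0.44 against -0.029 over all regions. The count rested on few libraries: 3552 regions were called in all and 596 without CpG replicate 1, 1867 without CpG replicate 2, 793 without LPS replicate 1 and 1298 without LPS replicate 2.

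Higher with LPS than with CpG were, among others, a region near Frmd8 and Malat1 (4.59 and 4.38 against 3.04 and 2.79, a difference of 1.57 ± 0.22, adjusted p = 2.18e-05) and the Fos region described above (4.49 and 4.51 against 2.81 and 3.13, 1.53 ± 0.26, adjusted p = 0.00022). The Nfkbia start was also 0.60 ± 0.13 higher with LPS. Lower with LPS was a region near Itgb2, the integrin β2 chain (chr10:77526724-77527225), at 1.09 and 0.20 with LPS and 3.21 and 3.46 with CpG (-2.69 ± 0.34, adjusted p = 2.12e-06). That region was at 0.40 and 1.12 in medium, so the LPS libraries lay at the medium level. Regions near Espn, Amer2 and Slco3a1 were also lower with LPS, with -2.51, -2.47 and -2.44 against CpG, and their differences from medium did not pass the test.

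Against TNF, 1934 regions were higher with LPS (3.60%) and 843 were lower (1.57%). Cytokine genes had 27 regions higher and 0 lower of 94, effectors 30 and 1 of 127, NF-kB inhibitors and feedback genes 29 and 0 of 188, and the interferon-stimulated list 18 and 0 of 146. The region that differed most lay near Uaca (chr9:60899704-60900205), at 3.95 and 4.03 with LPS, 1.08 and 0.16 with TNF and 1.01 and 0.64 with medium (3.36 ± 0.26 above TNF, adjusted p = 1.71e-11). Past the end of Acod1 the levels were 3.54 and 3.63 with LPS against 0.70 and 0.90 with TNF (2.79 ± 0.23), whereas at the Acod1 start TNF reached 4.60 and 4.71, 0.63 ± 0.13 below LPS. Lcn2, an iron-withholding defence protein, had its start region at 3.59 and 3.17 against 0.54 and 0.90 (2.66 ± 0.34). Some falls were deeper with LPS: the region near Vsig4 in Hsf3 was at 1.44 and 2.00 with LPS and 3.19 and 2.67 with TNF (-1.21 ± 0.30, adjusted p = 0.0112). In all 2777 regions were called, and 662, 953 and 768 without LPS replicate 1, LPS replicate 2 and TNF replicate 2.

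Against polyI:C, the ligand of TLR3 and of cytosolic RNA sensors, 5526 regions were higher with LPS (10.3%) and 5906 were lower (11.0%). No difference beyond counting error was found between the 2 polyI:C libraries (chi-square over regions, p = 0.293), so they may be 1 library deposited in 2 columns, and counted as 1 sample they gave 6148 calls instead of 11432. With either LPS library or either polyI:C library left out, 6550 to 7152 regions were called. Of the 146 interferon-stimulated regions 5 were higher with LPS and 97 lower, with a median of -0.69. Cmpk2, a mitochondrial nucleotide kinase induced by interferon (chr12:26476456-26476957), was at -0.31 and 0.20 with LPS and 4.32 and 4.16 with polyI:C (-4.29 ± 0.40, adjusted p = 2.77e-10). The Cxcl10 region 1.6 kb past the start was at 1.22 and 1.46 with LPS and 4.82 and 4.99 with polyI:C. Fpr1 showed the reverse, with 4.59 and 4.47 against 0.91 and 1.23 (3.46 ± 0.21). So did Best1 (3.15 ± 0.21) and a region 8.6 kb past the start of the Mincle gene Clec4e (2.52 ± 0.28). The Clec4e region at -0.8 kb, described above, was at 3.39 and 3.59 with LPS and 2.87 and 2.64 with polyI:C, against 1.13 and 1.12 in medium. There LPS lay 0.74 ± 0.23 above polyI:C. Macrophage identity genes had 43 regions higher with LPS and 8 lower of 211.

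**Figure D5:**
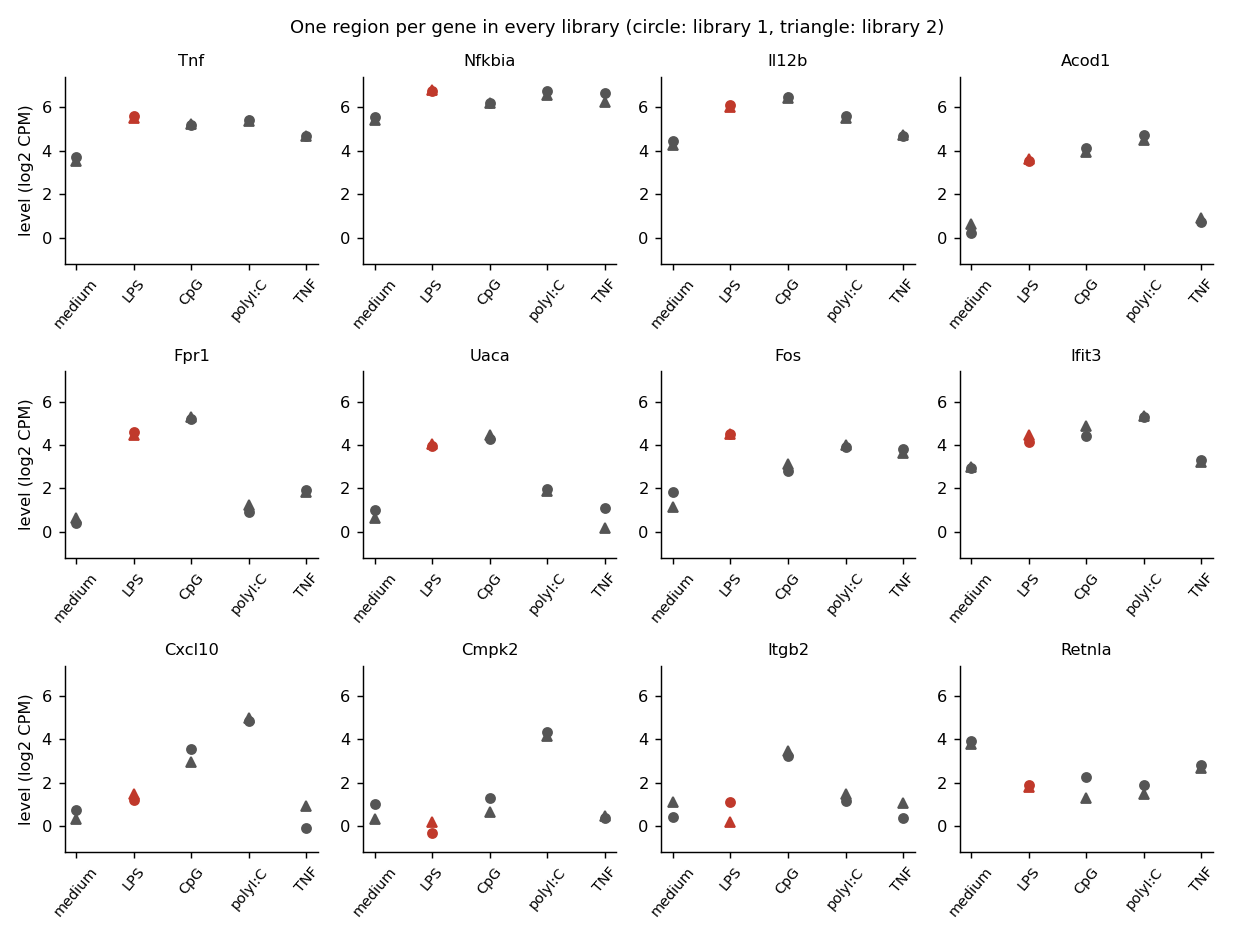
Level in log2 CPM (y axis) of 1 region for each of 12 genes in the 2 libraries of medium, LPS (red), CpG, polyI:C and TNF. Tnf and Nfkbia lie above medium with every stimulus, Fpr1 and Uaca are highest with LPS and CpG, the Cmpk2 region is above 4 with polyI:C and below 1.5 in the other 4 groups, and the Itgb2 region is above 3 with CpG and below 1.5 in the others.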

How the data were processed

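The values used were deposited by the authors as log2 CPM, 1 column per library, for 53796 ATAC-seq regions in 18 libraries. The submitters' processing notes name MACS3 3.0.0b1 and featureCounts, and for alignment and read handling Bowtie2 2.2.5, SAMtools 1.9 and Picard, with mm10 (GRCm38). Their settings are not given in the sources used here. Each region spans 501 bases from start to end, with coordinates as deposited. With a mean prior of 3 reads, 100% of the values convert back to whole reads (tolerance 0.01), and 0 reads corresponds to -0.70. That prior understates log2 differences where reads are few. The shallowest library had 3141641 reads in regions and the deepest 5986835.

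Means of the 9 groups were fitted with limma 3.58.1 (R 4.3.3) and a trend of variance on level, which left 9 residual and added 29.09 prior degrees of freedom. The Benjamini-Hochberg adjustment covered all regions of a comparison, calls were made under 0.05, and the median SE of LPS minus medium was 0.205. Tables were made with Python 3.11.15. Gene assignment took the nearest of 21900 protein-coding gene bodies (RefSeq, GRCm38.p6) within 50 kb, which placed 48850 regions at 13804 genes. A genome sequence was not used here.

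The members and the 23 gene lists (471 genes, 465 in the reference) were chosen with earlier results of these data known. Named regions were the 12 largest rises and falls among called regions with groups that did not overlap and a higher mean of at least 1 log2 CPM, 1 per gene and without predicted genes. To these were added the 6 largest each way against each other stimulus, up to 4 genes of each list with the most significant called region, and every region of Tlr4, Cd14, Nfkbia, Tnfaip3, Tnf, Il1b, Il6, Il12b, Acod1, Nos2, Cxcl10, Irf1, Retnla and Csf1r. Regions over start sites, microRNA loci and genes with many called regions were named after their values were seen. The text names part of these.

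Tested on simulated reads, the LPS against medium fit over 53796 regions recovered 6%, 58%, 100% and 100% of log2 changes of 0.5, 1, 2 and 3, with 8 other regions called. Only a small part of the regions was changed in that simulation. Chi-square per degree of freedom between the 2 libraries of a group was 1.07 for LPS, 1.08 for medium and 1.00 for polyI:C. In the remaining groups it was 1.17 to 2.71, with 1.26 for CpG, 1.36 for TNF and 2.71 for polyI:C then TNF. All 9 groups shared the estimate of the spread. Each alternative differed from this fit in 1 step, among them quantile normalization, a median shift, a filter at the 25th percentile of mean level, log2(CPM + 1), a fit with no variance trend or with robust variances, fewer groups in the fit, a block on the replicate number, voom on the recovered reads, lists assigned by gene end, and each library left out. The fit without the PT group (polyI:C then TNF) was added after seeing the data.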

Additional observations from a re-analysis of the deposited data

How the results depend on the processing

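A filter at the 25th percentile of mean level left 40347 of 53796 regions to test and gave 10268 calls. The count of 13879 regions called between LPS and medium was 10268 to 18005 in the alternatives that kept all 4 libraries. It was 7740 to 9719 with 1 library left out, with 5441 to 6625 higher and 2299 to 3094 lower, and 16895 without the PT group, a fit chosen after seeing the data. Quantile normalization gave 10592 calls, of which 10419 were shared, and voom gave 14290, of which 13029 were shared. The share of calls that were higher was 60.2% and moved to between 54.6% and 62.6% with all 4 libraries, and to 70.3% without LPS replicate 1. Against CpG, 3552 calls became 8547 with only the compared groups in the fit, 6713 with only the groups that received medium first, and 596 to 1867 with a library left out. Against TNF, 2777 became 6702 and 6213 in the same fits, 1704 without a variance trend, and 662 to 2165 with a library left out. Against polyI:C, 11432 became 17211 with only the compared groups, 6550 to 7152 with a library left out, and 6148 with the polyI:C libraries counted as 1 sample. Fits with fewer groups gave more calls, and fits with a library left out or with 2 libraries counted as 1 gave fewer. The cause was not tested. Of 210 named regions that were called, 39 lost the call in at least 1 alternative that tested them. The Cxcl10 region 1.6 kb past the start turned, with -0.007 after quantile normalization. Under the filter at the 25th percentile of mean level 137 of the 210 kept the call and 0 lost it. The rest were removed by that filter and not tested there.

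The labels number the libraries 1 and 2 without saying what a number shares. Differences between replicates of LPS and of medium correlated at 0.014 across regions, so no pairing was assumed, and the fit with the replicate number as a block called 13697 regions (8267 higher and 5430 lower). The block gave 3389 calls against CpG, 2631 against TNF and 11276 against polyI:C. In simulated reads a log2 difference of 0.5 was recovered in 6% of the changed regions. Few regions were changed in that simulation, whereas 25.8% were called in the data. The adjusted threshold is stricter where few regions change, so the 6% does not carry over to these data. Among the called falls the upper quartile was -0.53. How many changes of that size were missed was not tested. Medium replicate 2 had the fewest reads in regions, 3141641.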

Other observations

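Falls were also grouped by gene. Slc16a7, a monocarboxylate transporter, had 10 falls and 0 rises among 15 regions, with a median difference of -0.56 log2 units, and Abhd12, a lysophospholipid hydrolase, had 7 falls and 0 rises among 12 regions (median -0.60). Arhgap24, a RAC-directed GTPase-activating protein, had 10 falls and 1 rise among 21 regions, Pdlim5 10 and 1 among 19, and Vps13d 10 and 3 among 29. Tnr, an extracellular matrix gene of the nervous system, had 9 falls and 1 rise among 14 regions. These genes were chosen after their values were seen, among genes with at least 10 regions and many falls. Others of that kind were Mef2c, with 9 falls and 0 rises among 15 regions, and Fat3, Plxna2, Slc24a3 and Slc8a1, with 9 falls and 2 rises each.

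Regions more than 50 kb from any protein-coding gene were called in both directions. Of 4946 such regions 822 rose (16.6%) and 702 fell (14.2%), against 15.5% and 10.3% of all regions. They made up 9.19% of all regions, 9.84% of those that rose and 12.7% of those that fell.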
